A study of Mus musculus with 2 samples.

Results

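Carbonic anhydrases were examined in the mouse retina through 7 genes, Car2, Car3, Car4, Car8, Car10, Car12 and Car14, among the 25778 genes counted and the 16 genes of the table that carry a Car symbol. Of these 7, Car8 was chosen by its CPM in cones, which was higher in the Ptbp1-KO library, so its cone difference is given below as a description. The others were listed as members of the gene family and found by their symbols. The data are single-cell RNA-seq of P30 retina, with 1 Ptbp1-Ctrl library from 1 mouse (Chx10-Cre) and 1 Ptbp1-KO library from 1 mouse (Chx10-Cre;Ptbp1lox/lox), each taken at 30 days of age. Both mice carried the Chx10-Cre transgene, which expresses a Cre-GFP fusion in retinal progenitors, and the floxed alleles of the splicing regulator Ptbp1 were carried by the KO mouse alone. Animals and genotypes therefore cannot be told apart, no test was possible between the libraries, and the 95% intervals given here cover counting error only.

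Carbonic anhydrases are zinc enzymes that convert carbon dioxide and water to bicarbonate and a proton. In the retina this reaction handles the carbon dioxide and acid made by photoreceptors, and Müller glia, which span the tissue, are a classical site of the enzyme. Car2 and Car3 are cytosolic, Car4 is anchored to the outer face of the membrane, and Car12 and Car14 cross the membrane with an extracellular catalytic domain. The proteins of Car8 and Car10 lack catalytic activity. Car8 protein binds the inositol trisphosphate receptor, and Car10 protein is a secreted ligand of neurexins.

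The Ptbp1-Ctrl library held 16421 cells and 32758836 UMIs (unique molecular identifiers, 1 per captured transcript), and the Ptbp1-KO library held 14522 cells and 35328593 UMIs, with median depths of 1442 and 1740 UMIs per cell. Cells carried the deposited names rod, cone, bipolar (BC), amacrine (AC), Müller glia (MG), retinal ganglion (RGC) and horizontal cell (HC), and every marker of these 7 types was highest in its own type in both libraries, except 1 of the 7 amacrine markers. A further list of 4 starburst amacrine markers summed to 12.8 and 12.2 CPM in AC and to 197 and 182.5 CPM in MG. Ptbp1 itself was at 49.8 CPM (UMIs per 1000000 UMIs of the cells summed) in MG of Ptbp1-Ctrl and at 1.18 CPM in MG of Ptbp1-KO. The study's methods name female mice, whereas both libraries held Y-linked transcripts, from 43.1 and 47.9 CPM of Kdm5d upwards, and Xist lay at 0.153 and 0.170 CPM. Between the libraries 63 cell barcodes were shared, 4 of which belonged to a cone in at least 1 library, and the ratios were computed with and without them.

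The 7 genes fell into 4 patterns over the cell types. Car14 was a gene of MG, Car10 and Car8 were genes of BC, Car2 was found in every type with its highest level in MG, and Car3, Car4 and Car12 were at or near the limit of detection. These patterns were found in both libraries. Of the members with at least 50 CPM on average and 50 UMIs over both libraries in rods, cones, BC, AC or MG, only Car8 in cones differed by more than 1.5-fold. That value is the one for which Car8 was chosen, and in cones 2.58% of all genes with the same minimum were past this fold.

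**Figure D1:**
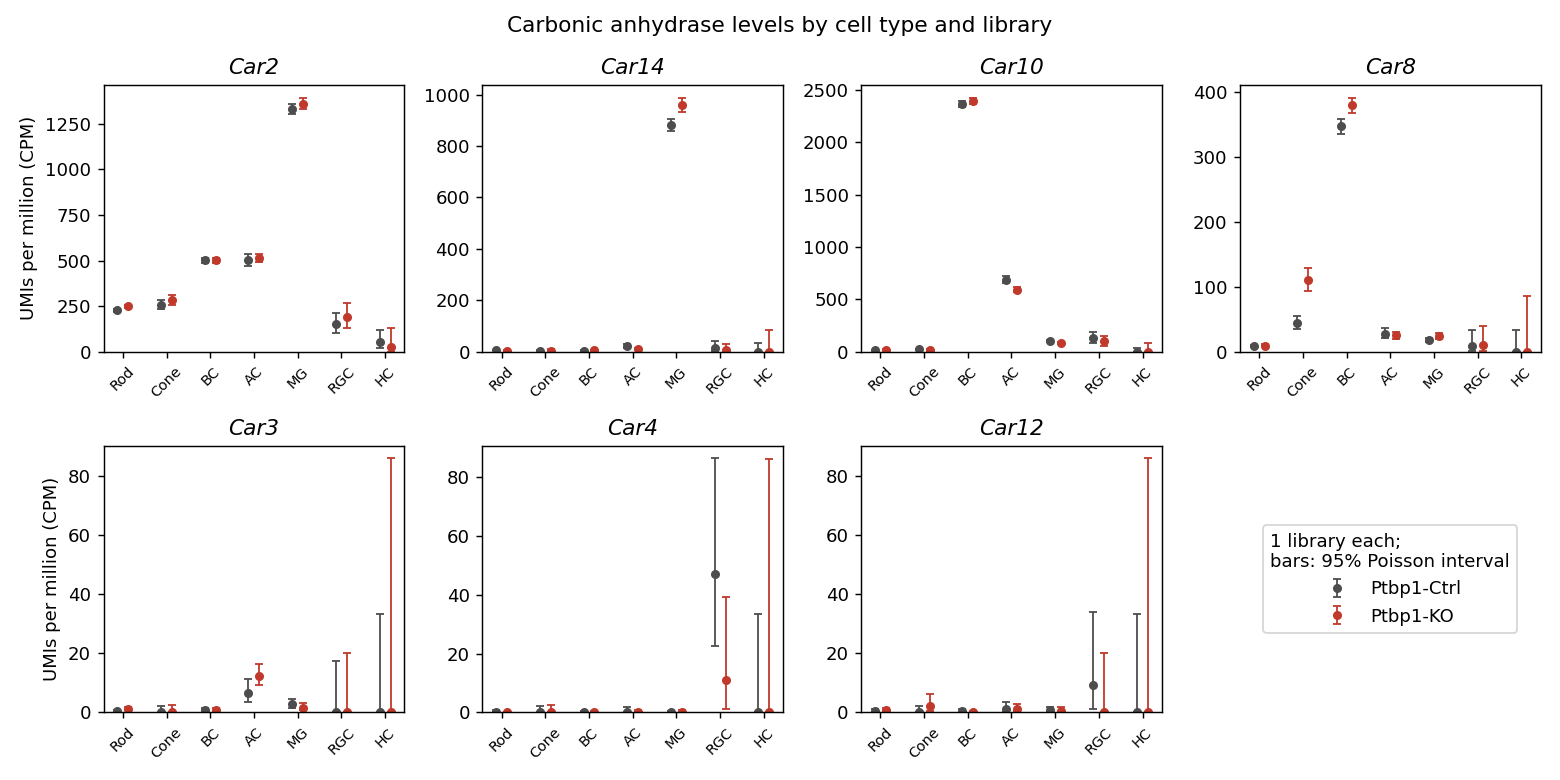
Level of each gene (vertical axis, CPM, each panel with its own scale from 0) in the 7 cell types of the Ptbp1-Ctrl (grey) and Ptbp1-KO (red) library, 1 library each, with bars for the exact 95% Poisson interval. Car14 stands at 881 and 961 CPM in MG, Car10 at 2369 and 2398 CPM in BC, and Car8 in cones at 44.1 and 111 CPM.

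Car2, the abundant cytosolic enzyme, lies on chromosome 3 from 14886273 to 14900770 on the plus strand (GRCm38, GENCODE M21). Its level in MG was 1331 CPM in the control and 1361 CPM in the KO library, and the log2 ratio of KO over Ctrl was 0.03 (-0.01 to 0.08). AC stood at 504 and 512 CPM and BC at 501 and 502 CPM. The ratios of both neuron types were close to 0, with 0.02 (-0.09 to 0.14) in AC and 0.00 (-0.05 to 0.06) in BC. Cones held 259 and 284 CPM (log2 ratio 0.13, -0.06 to 0.33), and rods, which detect dim light, held 228 and 250 CPM (0.14, 0.07 to 0.21). RGC followed with 150 and 191 CPM from 32 and 35 UMIs, and HC with 6 UMIs and 1 UMI. In the order of levels, AC and BC did not differ beyond their intervals in either library, nor did cones and rods.

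MG held 45.7% of all Car2 UMIs in the control and 38.2% in the KO library, where fewer cells were MG (1720 and 1184). In 1000 UMIs drawn from each cell, a Car2 UMI was present in 67.6% (65.3 to 69.8) and 66.7% (63.9 to 69.4) of MG, and in 35.3% and 35.2% of BC. Rods and cones were lower, at 21.1% and 20.97% of rods and 20.4% and 23.3% of cones. Without drawing to an equal depth the shares in MG were 86.9% and 91.3%, from cells with medians of 3333 and 4178 UMIs. The rod shares left out 4155 and 3126 shallower rods, and at 700 UMIs, which keeps every rod, they were 13.5% (12.8 to 14.2) and 14.2% (13.5 to 14.97). The difference of Car2 in rods moved with the scaling, since the median over all genes in rods shifted by -0.0945 (log2) under TMM scaling and by -0.1127 under DESeq2 size factors, and Car2 was then at 0.04 and 0.02.

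Car2 varied far more among clusters of one cell type than between the libraries. The deposited cluster number is used for these groups, since clusters were made from the same cells and their differences are a description. Among 3 amacrine clusters, cluster 15 held 1384 and 1336 CPM, whereas cluster 14 held 306 and 288 CPM and cluster 6 held 211 and 210 CPM. Cluster 15 carried 4 markers of AII amacrine cells, the rod pathway's glycinergic interneuron, at a summed 6873 and 6569 CPM, against 777 and 740 CPM in cluster 6, which was led by the GABA-synthesis genes Gad1 and Gad2. Among 10 bipolar clusters Car2 ranged from 174 and 167 CPM in cluster 19 to 1032 and 1006 CPM in cluster 13. In 9 of the 10 the interval of the ratio held 0, and in cluster 18 Car2 was higher in Ptbp1-KO (336 and 420 CPM, log2 ratio 0.32, 0.05 to 0.60). In all 3 amacrine clusters the interval held 0.

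Within MG, cluster 4, with 1386 and 994 cells, held 1429 and 1457 CPM of Car2. Cluster 16, whose cells were shallower (medians of 1314 and 1715 UMIs), held 340 and 350 CPM. Cluster 22 held 1096 and 897 CPM (log2 ratio -0.29, -0.49 to -0.09), in 89 and 54 cells. Rod clusters differed as well, with 155 and 183 CPM in cluster 0, 161 and 160 CPM in cluster 1 and up to 331 and 386 CPM in cluster 3. The summed level of 6 rod markers was also lower in cluster 0 (24946 and 23508 CPM) than in cluster 3 (68798 and 73127 CPM). Among rods the 4 clusters did not hold the same share of cells in both libraries, with cluster 0 at 45.9% and 58.7%.

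Car3, a cytosolic enzyme of low activity best known from muscle and fat, lies beside Car2 on chromosome 3 from 14863512 to 14872523, plus strand. The whole libraries held 43 and 81 of its UMIs, or 1.31 and 2.29 CPM. AC held 13 and 48 of them (6.65 and 12.4 CPM, log2 ratio 0.91, -0.00 to 1.91). Nearly all came from amacrine cluster 6, in which 12 UMIs lay in 6 of 293 cells and 46 UMIs in 9 of 478 cells. The 5 cells with most Car3 UMIs held 11 and 41 of these, and a single cell held up to 6 and 10. With every cell drawn to 1000 UMIs, the ratio in AC was -0.51. MG held 16 and 8 UMIs, rods 6 and 17, and BC 8 and 8, while cones, RGC and HC held 0, which by the limit of 3 cells of the total allows a share of up to 0.475% of Ptbp1-Ctrl cones and 0.683% of Ptbp1-KO cones with a UMI. Car3 was thus present in few amacrine cells of either library, and a handful of cells set its level.

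Car14, the transmembrane enzyme of MG, is a minus-strand gene of chromosome 3 (95897768 to 95904691) and overlaps Aph1a of the plus strand, so reads could be separated only if strand was used in counting, which is not given in the sources used here. MG held 96.9% and 96.8% of its UMIs. Its level there was 881 CPM (5200 UMIs) in the control and 961 CPM (4888 UMIs) in the KO library, a log2 ratio of 0.13 (0.07 to 0.18). The ratio lay between 0.09 and 0.14 under all alternatives computed, a difference of 1.09-fold, while the share of MG with a UMI in 1000 was 58.8% (56.4 to 61.2) and 59.2% (56.3 to 62.0). Over whole libraries the direction was opposite, with 164 and 143 CPM, and MG were 1720 of 16421 cells in one library and 1184 of 14522 cells in the other.

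Outside MG the level of Car14 was at most 21.5 CPM in any type. AC held 21.5 and 11.9 CPM (42 and 46 UMIs, log2 ratio -0.85, -1.48 to -0.21), of which amacrine cluster 14 held 49.2 and 32.0 CPM. The same cluster held 1747 and 1497 CPM of the 8 MG markers, and all AC held 951 and 729 CPM, with none of the 8 at 0. The part of these markers' transcripts in the Car14 value was not tested, and at 1000 UMIs per cell the ratio was -0.10. Rods held 6.06 and 4.14 CPM (79 and 60 UMIs, log2 ratio -0.55, -1.06 to -0.05), which is 0.508% and 0.421% of rods with a UMI in 1000. BC held 3.88 and 4.79 CPM and cones 6 UMIs in each library.

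The number of Car14 UMIs per 100 Car2 UMIs was higher in MG than in the neurons that also held Car2. It was 66.2 and 70.6 in MG, against 0.774 and 0.953 in BC, 1.33 and 1.48 in cones, 2.66 and 1.65 in rods and 4.26 and 2.33 in AC. Of the amacrine clusters, cluster 14 was the highest at 16.1 and 11.1. Amacrine cluster 15, with a Car2 level like that of MG, held 0 and 4 Car14 UMIs beside 601 and 1293 Car2 UMIs. Within MG the level of Car14 was 918 and 984 CPM in cluster 4 (log2 ratio 0.10, 0.04 to 0.16), 955 and 1001 CPM in cluster 16 and 470 and 659 CPM in cluster 22 (0.49, 0.23 to 0.75). Cluster 16 was therefore lower than cluster 4 in Car2 and not in Car14, with 281 and 286 Car14 UMIs per 100 Car2 UMIs. This was not particular to Car2. The MG marker Glul was also lower in cluster 16 (2177 and 2145 CPM) than in cluster 4 (10506 and 10651 CPM), as were Rlbp1 and Sox9. Dkk3 was not lower, with 2058 and 2387 CPM against 1742 and 1798 CPM.

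Car4, the membrane-anchored enzyme, lies on chromosome 11 from 84957786 to 84966044, plus strand. The libraries held 13 and 2 of its UMIs in all. RGC, the output neurons of the retina, held 10 and 2 (46.9 and 10.9 CPM, log2 ratio -2.11, -5.34 to 0.12), and rods held 3 and 0. The RGC also held 6 rod markers at a summed 23774 and 29263 CPM, and their part in the Car4 value was not tested. Cones, BC, AC, MG and HC held 0 in both libraries. Over whole libraries the ratio was -2.81 (-6.00 to -0.67), while the 10 and 2 UMIs of RGC came from 4 of 124 and 2 of 97 cells, with up to 4 in 1 cell. Car12, the other transmembrane enzyme, lies on chromosome 9 from 66713686 to 66766845, plus strand. It gave 20 and 26 UMIs in all and at most 9.39 CPM in any type, that value resting on 2 UMIs of RGC, so neither its cell type nor a difference was detectable.

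Car10, the secreted neurexin ligand, spans 503722 bases of chromosome 11, from 93098028 to 93601749 on the plus strand, and overlaps the small gene Gm24856 of the minus strand. BC, the interneurons between photoreceptors and RGC, held 91.2% and 89.0% of its UMIs. Its level in BC was 2369 CPM in the control and 2398 CPM in the KO library (log2 ratio 0.02, -0.01 to 0.04), and 83.5% (82.2 to 84.8) and 83.8% (82.3 to 85.2) of BC held a UMI in 1000. Among the cells named BC, cluster 21 was led by cone genes such as Opn1mw and Arr3, and without it the ratio was 0.00.

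**Figure D2:**
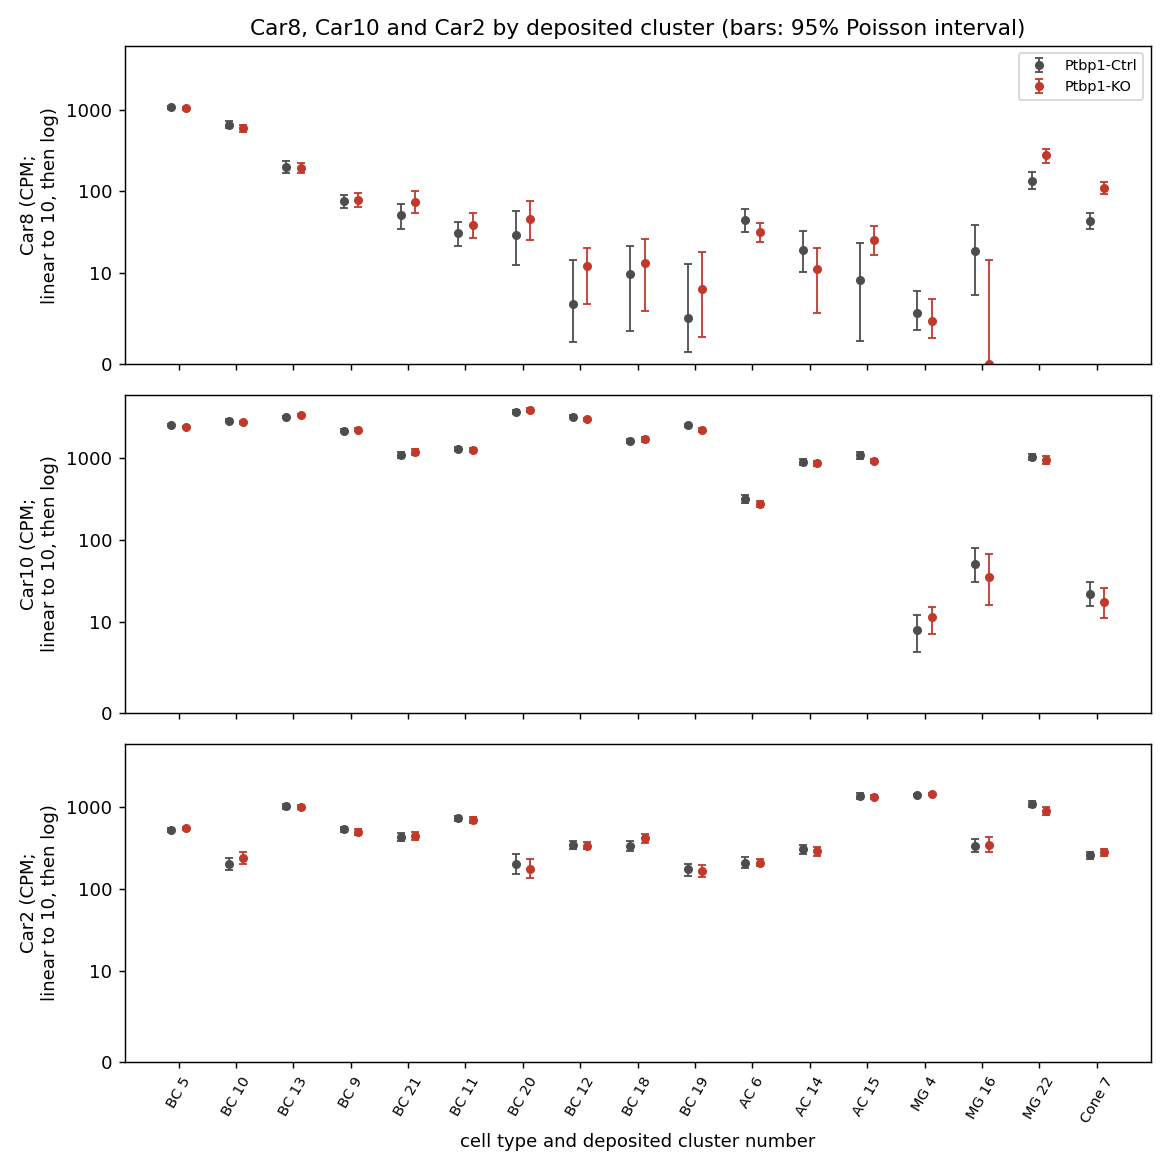
Level of Car8, Car10 and Car2 (vertical axes in CPM, linear up to 10 and logarithmic above) in each deposited cluster of BC, AC, MG and cones, for Ptbp1-Ctrl (grey) and Ptbp1-KO (red) with the exact 95% Poisson interval. Car10 lies above 1000 CPM in every BC cluster, whereas Car8 ranges from 5.11 CPM in BC cluster 19 to 1068 CPM in BC cluster 5 of Ptbp1-Ctrl.

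All 10 bipolar clusters held Car10, from 1101 and 1201 CPM in cluster 21 to 3721 and 3874 CPM in cluster 20. By cluster the ratios pointed both ways. Car10 was lower in Ptbp1-KO, with an interval apart from 0, in 3 clusters and higher in 1, and the interval held 0 in the other 6. Cluster 19, which was led by genes such as Il1rapl2 and held the bipolar transcription factor Vsx1 among its leading genes, had 2543 and 2234 CPM (log2 ratio -0.19, -0.28 to -0.09). Cluster 5 had 2584 and 2408 CPM (-0.10, -0.15 to -0.05) and cluster 12 had 3250 and 2998 CPM (-0.12, -0.19 to -0.04). In cluster 13 Car10 was at 3218 and 3417 CPM (0.09, 0.01 to 0.16). All of these differences were well under 1.5-fold.

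AC were the next highest type for Car10, with 690 CPM in the control and 591 CPM in the KO library (log2 ratio -0.22, -0.32 to -0.13), and the ratio stayed between -0.30 and -0.14 under all alternatives computed. The share of AC with a UMI in 1000 was 42.1% (38.2 to 46.1) and 37.0% (33.8 to 40.3), with intervals that overlap. Cluster 15 held 1094 and 933 CPM (-0.23, -0.39 to -0.07), cluster 14 held 898 and 876 CPM (-0.04, -0.19 to 0.12) and cluster 6 held 320 and 276 CPM (-0.22, -0.43 to -0.00). The cluster of lowest level, cluster 6, made up 43.3% of AC in Ptbp1-Ctrl and 50.6% in Ptbp1-KO.

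In MG, Car10 was at 104 and 82.4 CPM (log2 ratio -0.34, -0.52 to -0.16). These UMIs did not come from MG at large. Cluster 22 held 550 of the 615 Ptbp1-Ctrl UMIs and 358 of the 419 Ptbp1-KO UMIs (1050 and 959 CPM), while cluster 4 held 9.18 and 11.7 CPM. In cluster 22 the 10 BC markers summed to 4319 and 5114 CPM, against 552 and 663 CPM in cluster 4, none of the 10 was at 0, median depth was 6076 and 7127 UMIs, and the median doublet score of 0.268 was the highest of any cluster. Without cluster 22 the ratio in MG was 0.10, and without the 5% of cells with the highest doublet score it was 0.77. Elsewhere Car10 was low, at 15.5 and 19.5 CPM in rods (0.33, 0.06 to 0.60), 22.3 and 17.5 CPM in cones and 131 and 98.0 CPM in RGC (28 and 18 UMIs). In rods, cluster 0 held 107 and 201 of the 202 and 282 UMIs, and the 10 BC markers summed to 524 and 656 CPM. Their part in the rod value was not tested.

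Car8, whose protein binds the inositol trisphosphate receptor, is a minus-strand gene of chromosome 4 (8143362 to 8239041) and overlaps Gm11799 of the minus strand and Gm25355 of the plus strand. BC held 90.7% and 88.2% of its UMIs, at 348 CPM in the control and 380 CPM in the KO library (log2 ratio 0.13, 0.06 to 0.19, and 0.11 without cluster 21). In contrast to Car10, Car8 was concentrated in few BC. Cluster 5 held 1068 and 1034 CPM (-0.05, -0.12 to 0.03) and cluster 10 held 650 and 592 CPM (-0.14, -0.34 to 0.06), and together they held 89.3% and 89.4% of the BC UMIs of Car8.

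Cluster 5 was rod bipolar-like, since Sebox, Pcp2 and Vstm2b were among its leading genes and the 3 rod bipolar markers Prkca, Sebox and Vstm2b summed to 8122 and 7793 CPM. In cluster 10 the same markers summed to 8530 and 8533 CPM. Prkca alone made up most of both sums, with 7011 and 6644 CPM in cluster 5 and 8030 and 8053 CPM in cluster 10. Sebox was lower in cluster 10, at 173 and 123 CPM against 565 and 594 CPM in cluster 5. Vstm2b was lower as well, at 326 and 357 CPM against 546 and 555 CPM. Haemoglobin genes led cluster 10 (0 UMIs in the control against 2951 in the KO library). Its cells were also shallower (medians of 1529 and 1858 UMIs), so it was left unnamed. In 1000 UMIs Car8 was present in 64.5% (61.0 to 67.9) and 62.8% (59.1 to 66.5) of cluster 5 cells. Cluster 13 followed with 201 and 195 CPM, then cluster 9 with 76.5 and 78.4 CPM, and the lowest was cluster 19 with 5.11 and 8.29 CPM from 4 and 6 UMIs. In none of the 8 bipolar clusters with at least 20 Car8 UMIs over both libraries did the interval of the ratio lie apart from 0. The higher level over all BC went with cluster 5, which made up 24.1% of BC in Ptbp1-Ctrl and 27.1% in Ptbp1-KO, and with every cluster weighted as in Ptbp1-Ctrl the ratio was -0.04.

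In cones, the photoreceptors of daylight and colour vision, Car8 was at 44.1 CPM in Ptbp1-Ctrl (34.8 to 55.1, 77 UMIs in 632 cells) and at 111 CPM in Ptbp1-KO (94.2 to 130, 158 UMIs in 439 cells). This is the value for which the gene was listed, a 2.51-fold ratio (log2 1.33, 0.93 to 1.74). Among the 3997 genes counted deeply enough in cones it was the fifth from the top, with Abcd4 at 1.58 above it and Rgs22 at 1.32 and Enam at 1.30 below. The ratio lay between 1.24 and 1.47 under all alternatives computed, including 1.33 without shared barcodes, 1.30 once cells with the highest doublet scores were left out and 1.32 without the cell that held most Car8 UMIs.

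The UMIs were spread over many cones. Of the Ptbp1-Ctrl cones 573 held 0 Car8 UMIs, 43 held 1, 14 held 2 and 2 held more, and of the Ptbp1-KO cones 338 held 0, 68 held 1, 22 held 2 and 11 held more. The 5 cones with most Car8 UMIs contributed 15.6% and 16.5% of the total. At 1000 UMIs per cell a Car8 UMI was present in 4.41% (2.90 to 6.40) of Ptbp1-Ctrl cones and 10.4% (7.62 to 13.7) of Ptbp1-KO cones, and without drawing to equal depth in 9.34% and 23.0%. Rods served as the background, where 0.779% and 0.810% held a UMI in 1000, at median depths of 1088 UMIs and 1288 UMIs against 2660 UMIs and 3179 UMIs in cones. Cones of both libraries were therefore above the share found in rods. In AC the shares were 2.08% (1.11 to 3.53) and 1.23% (0.617 to 2.20). The interval of Ptbp1-Ctrl cones overlapped that of AC, and the interval of Ptbp1-KO cones lay above it.

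**Figure D3:**
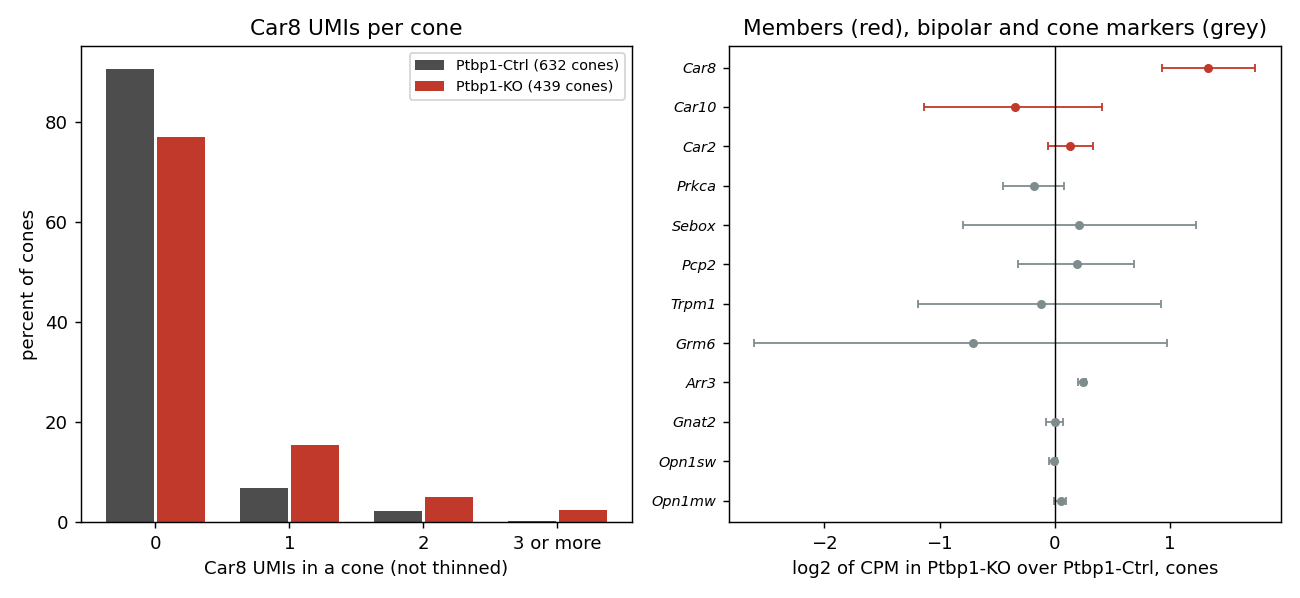
Left, percent of cones (bars from 0) by the number of Car8 UMIs they held, for 632 Ptbp1-Ctrl and 439 Ptbp1-KO cones without drawing to equal depth. Right, log2 ratio of CPM in Ptbp1-KO over Ptbp1-Ctrl in cones for Car8, Car10 and Car2 (red) and for rod bipolar, bipolar and cone markers (grey), with bars for the 95% counting interval. Car8 stands at 1.33, and Prkca at -0.18 and Pcp2 at 0.19 lie near 0.

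Markers of bipolar cells in cones were set beside Car8, and their part in its level was not tested. The 3 rod bipolar markers summed to 180.5 and 157 CPM in cones, with Vstm2b at 0 in Ptbp1-KO, and Prkca, protein kinase C alpha, was at 164 and 145 CPM (log2 ratio -0.18, -0.45 to 0.08). The 10 BC markers summed to 393 and 487 CPM with none at 0. Among them Cabp5 had a log2 ratio of 0.52 (0.08 to 0.96), Gng13 of 0.44 (0.06 to 0.81) and Otx2, a factor that photoreceptors also express, of 0.40 (0.18 to 0.63). Per Car10 UMI, cones held 1.97 and 6.32 Car8 UMIs, whereas BC cluster 5 held 0.413 and 0.429. Of the cone markers, Gnat2 was at 1854 and 1853 CPM and Opn1sw at 8472 and 8403 CPM, whereas cone arrestin Arr3 was higher in Ptbp1-KO (7101 and 8371 CPM, log2 ratio 0.24, 0.20 to 0.27). The study reported the opposite direction for Arr3 in mutant cones, from its own test over cells. The cause of this difference was not tested.

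Car8 was chosen by its level in these cones, so their split by opsin describes the difference and gives no further support. The difference was seen in both parts. In cones with more Opn1sw than Opn1mw UMIs, the short-wavelength and medium-wavelength opsins, Car8 was at 37.9 and 72.2 CPM (log2 ratio 0.93, 0.35 to 1.52, in 407 and 284 cells). In those with more Opn1mw it was at 54.9 and 188.5 CPM (1.78, 1.19 to 2.40, in 215 and 144 cells). The intervals of the ratios overlap, and the difference between them was not tested. This split is a range of 1 measure, and 42 and 44 cones lay within 2 UMIs of the cut. Car2 had ratios of 0.04 (-0.21 to 0.29) and 0.24 (-0.09 to 0.57) in the same cones.

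Outside BC and cones the level of Car8 was low. AC held 28.1 and 25.2 CPM, rods 8.51 and 9.59 CPM, and RGC 2 UMIs in each library. MG held 17.9 and 24.4 CPM (log2 ratio 0.44, 0.06 to 0.83), of which cluster 22 held 71 of 106 and 103 of 124 UMIs, or 136 and 276 CPM (1.03, 0.57 to 1.48). In that cluster the 3 rod bipolar markers summed to 1241 and 1995 CPM with none at 0, of which Prkca held 1084 and 1708 CPM. The 6 cone markers summed to 2147 and 3454 CPM there. The part of either list in the Car8 value was not tested. Cluster 4 held 5.59 and 4.71 CPM of Car8, and without cluster 22 the ratio in MG was -0.55.

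**Figure D4:**
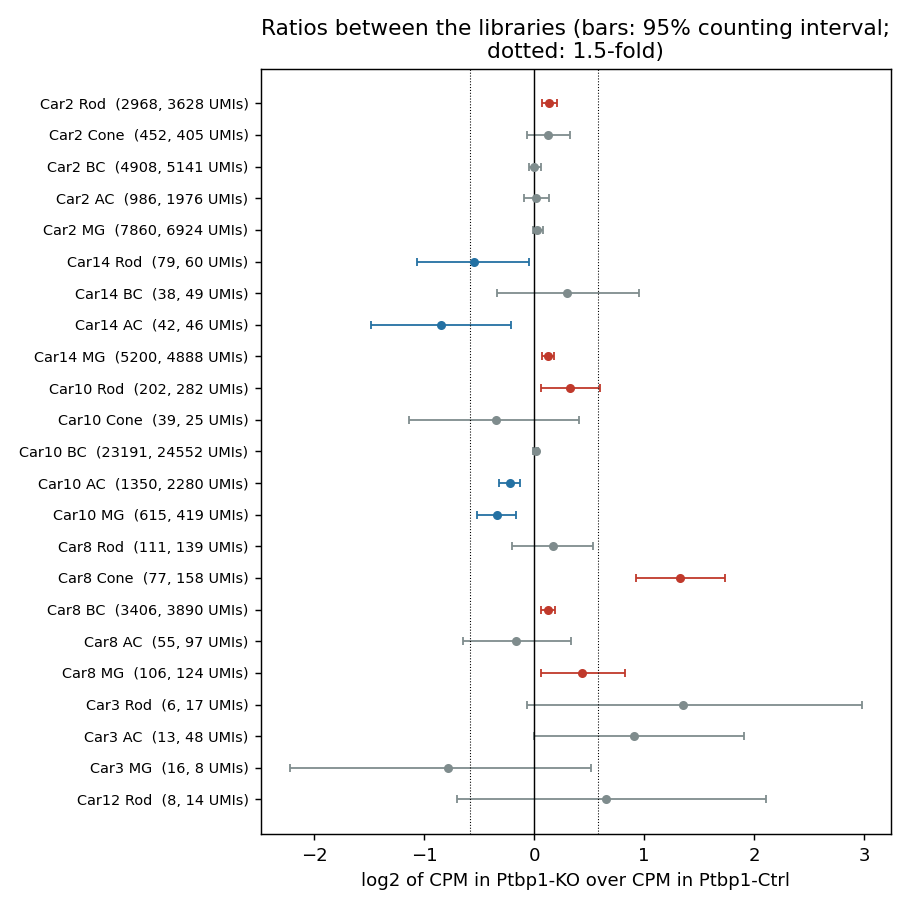
Log2 ratio of CPM in Ptbp1-KO over Ptbp1-Ctrl (horizontal axis) for every member and large cell type with at least 20 UMIs over both libraries, with bars for the 95% counting interval, red and blue where it lies apart from 0 and dotted lines at 1.5-fold. Car8 in cones, at 1.33, is the only ratio whose whole interval, from 0.93 to 1.74, lies beyond 1.5-fold. It is the value for which Car8 was chosen.

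The counts past 1.5-fold were set beside those of all genes with the same minimum. In rods 1 member (Car2) met the minimum and 0 were past the fold, where 1.63% of all genes were. In cones 2 members (Car2 and Car8) met it and 1 was past the fold, beside 2.58% of all genes, a count fixed by the choice of Car8. In BC 3 members met it (Car2, Car8 and Car10) and 0 were past the fold, beside 0.91%. In AC 2 members met it (Car2 and Car10) and 0 were past the fold, beside 1.28%, and in MG 3 members met it (Car2, Car10 and Car14) and 0 were past the fold, beside 2.43%. With so few members these counts set nothing apart from the background.

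The genes whose level over 42 sums of cluster and library was most like that of a member were found by Pearson correlation of log2(CPM + 10), which describes cells of shared libraries and clusters. For Car14 they were Abca8a and S1pr1 (0.991 each), followed by F3. For Car10 they were Nyap2, Rit2 and Syt4 (0.982, 0.970 and 0.958), and for Car8 Strip2, Wscd2 and Cep112 (0.924, 0.907 and 0.897). Car2 had no such close partner, with Ftl1 the highest at 0.744. Between Car2, Car8, Car10 and Car14 the correlation was highest for Car8 and Car10, at 0.49, and for Car2 and Car14, at 0.37. Pairs with Car3, Car4 or Car12 rest on few UMIs, and the highest of them were Car12 with Car14 at 0.51 and Car3 with Car4 at 0.50.

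Genes that work beside carbonic anhydrases were compared in the same way. Among 9 further Car genes, 0 met the minimum in rods, cones or BC, 1 did in AC and 1 in MG, and none was past 1.5-fold. Car5b, a mitochondrial enzyme, was at 80.8 and 64.9 CPM in MG (log2 ratio -0.32, -0.52 to -0.11), and Car11, a secreted relative of Car10, was at 54.2 and 55.5 CPM in AC. Of Ptprg and Ptprz1, receptor phosphatases with an extracellular domain related to carbonic anhydrases, Ptprg was at 346 and 501 CPM in cones (0.53, 0.37 to 0.69) and at 156 and 212 CPM in MG (0.44, 0.31 to 0.57). In AC it was at 268 and 269 CPM, and Ptprz1 was at 570 and 575 CPM in BC. In rods Ptprg was below the minimum, at 35.2 and 58.0 CPM (0.72, 0.56 to 0.89).

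None of the transport and partner genes that met the minimum was past 1.5-fold in any of the 5 large types. Below the minimum, larger ratios were found in rods, such as Slc9a9 at 22.3 and 44.1 CPM (0.98, 0.78 to 1.19), Slc4a5 at 11.3 and 21.7 CPM (0.94, 0.66 to 1.23) and Slc16a3 at 11.4 and 4.90 CPM (-1.22, -1.65 to -0.80), which were picked after their values were seen. Of 17 bicarbonate and proton transport genes in the table, 2 met the minimum in rods, 4 in cones, 5 in BC, 5 in AC and 1 in MG. The sodium bicarbonate cotransporter Slc4a7 was at 781 and 795 CPM in rods, and Slc4a10 at 822 and 842 CPM in BC. Bsg, the chaperone of lactate transporters, was at 1711 and 1927 CPM in MG and 305 and 246 CPM in rods. In MG the water channel gene Aqp4 was at 658 and 674 CPM and the potassium channel gene Kcnj10 at 288 and 302 CPM. The neurexin Nrxn3 was at 11452 and 11073 CPM in BC, and of the inositol trisphosphate receptors Itpr2 was at 124 and 151 CPM in rods while none met the minimum in cones.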

How the data were processed

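Retinas of 1 Ptbp1-Ctrl and 1 Ptbp1-KO mouse were profiled with the 10x Genomics Chromium Single Cell 3' kit v3.1. The authors aligned reads to mm10 with Cell Ranger 7.0.1 and processed cells in Seurat 4, and the filter stated requires above 200 but below 5000 genes, above 700 but below 10000 UMIs and a mitochondrial share under 20%. All 30943 deposited cells met this filter. The annotation, intron counting and strand use are not given in the sources used here. The deposited values were raw UMI counts per gene and cell, not normalized, and a cell table by the authors with total counts per cell, the percent of mitochondrial UMIs, a cluster number, a library name and a cell type, of which 2 further columns were not used. The authors' test over cells was not used.

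UMI counts were summed by library and type or cluster and divided by total UMIs (CPM). Intervals were exact Poisson for levels, Clopper-Pearson for shares and conditional binomial for ratios, computed in Python 3.11.15 with scipy 1.17.1, and tested on simulated data. Shares were computed after each cell was thinned to 1000 UMIs, leaving out shallower cells. TMM (edgeR 4.0.16) and median-of-ratios factors (DESeq2 1.42.0) were alternatives on the counts as deposited. The doublet caller of scanpy 1.11.5 called 0 of 16421 and 0 of 14522 cells and so did not work, and no doublets were removed. Only its scores were used, to leave out the highest 5%. Free RNA was estimated from markers of other types. Positions are from GENCODE M21, where all 7 symbols matched.

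Members and lists were chosen with earlier results of these data known. Named were the members, genes of related lists that met the minimum of 50 CPM and 50 UMIs and a fold of 1.5 or were among the 3 highest in a type, the 3 genes most like each member, Ptbp1 and markers that moved with a member. From these, the text gives those with the highest levels. One listed rod bipolar marker is not reported here and was left out of the sums.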

Additional observations from a re-analysis of the deposited data

Results flagged for a closer look

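For Car10 and Car14 the ratio between the libraries pointed to opposite sides of 0 in different cell types, with counting intervals apart from 0, and the difference between the types was not tested. Car10 had a log2 ratio of KO over Ctrl of 0.33 in rods, -0.22 in AC and -0.34 in MG. The MG value rests mostly on cluster 22, with 550 of 615 Ptbp1-Ctrl UMIs and 358 of 419 Ptbp1-KO UMIs. Without the cells of highest doublet score the Car10 ratio in MG was 0.77, so MG then lay on the same side of 0 as rods. Car14 had a log2 ratio of 0.13 in MG, -0.55 in rods and -0.85 in AC. With cells thinned to 1000 UMIs, the Car14 ratio was -0.27 in rods and -0.10 in AC. The values in rods rest on 202 and 282 UMIs of Car10 and on 79 and 60 UMIs of Car14, and that of Car14 in AC on 42 and 46 UMIs.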

How the results depend on the processing

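No paired analysis was possible because each genotype had 1 library, and no library could be left out. There were 23 ratios by cell type and 245 alternative values. By counting interval and side of 0, 225 were counted as unchanged, 13 as moved and 7 as reversed. Small ratios could cross 0 inside an interval that held 0. Car2 in AC (0.02), for instance, was -0.05 with clusters weighted as in Ptbp1-Ctrl. Car8 in cones, Car14 in MG and Car10 in AC kept their direction under every alternative computed. Ratios turned in MG, where Car8 (0.44) was -0.41 once the highest doublet scores were left out and -0.55 without cluster 22, and Car10 (-0.34) was 0.03 with cells thinned, 0.77 without the highest doublet scores, 0.02 without the cells with most UMIs and 0.10 without cluster 22, which holds most of these UMIs. In BC, Car8 (0.13) was 0.05 with cells thinned and -0.04 with clusters weighted as in Ptbp1-Ctrl, and Car10 (0.02) was -0.02 under TMM, 0.05 thinned and -0.04 weighted. In rods, Car8 (0.17, interval holding 0) was -0.89 with free RNA subtracted. Car3 in AC (0.91) was -0.51 thinned, and the cause was not tested. Leaving out shared barcodes, MG cluster 22 or BC cluster 21, and weighting clusters, were chosen after seeing the data. After subtracting free RNA, 15 of 46 levels were at 0 (negative values were set to 0).

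Where no minimum was set, which by construction adds genes of few UMIs, the share of genes past the fold was 29.8% in rods, 27.1% in cones, 22.9% in BC, 26.1% in AC and 23.4% in MG, with 2 members in rods, 1 in cones, 1 in BC, 2 in AC and 1 in MG. At a fold of 2 it was 0.545%, 0.45%, 0.263%, 0.155% and 0.571%. With at least 200 CPM it was 1.45% in cones, with 0 members since Car8 falls below it, and 0.732% in AC. Protein identity between members was not computed. Depth limits Car3, Car4 and Car12, RGC and HC, and 1 mouse per genotype limits every ratio.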
